A study of Rattus norvegicus with 12 samples.

Results

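The respiratory chain was measured as 94 transcripts in INS-1E cells, 81 from nuclear genes and 13 from mitochondrial DNA, of 14324 genes that passed the filter on low counts and 34034 gene rows in all. Nuclear members were the rows whose symbols name subunits of complexes I to V (Nduf, Sdh, Uqcr, Cox4 to Cox8 and Atp5), and the mitochondrial class was the 13 rows ND1 to ND6 with ND4L, COX1 to COX3, ATP6, ATP8 and CYTB. Of 86 nuclear rows that matched by name, 5 had too few counts to pass, and these were the isoforms Cox4i2, Cox6b2, Cox7b2, Cox8b and Cox8c, with at most 3 counts in any library. Complex I held 36 nuclear and 7 mitochondrial members, complex II 4 nuclear members, complex III 8 and 1, complex IV 15 and 3 and complex V 18 and 2, with Ndufa4 counted in complex IV.

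INS-1E is a rat insulinoma line that secretes insulin and stands in for the pancreatic β-cell, and all libraries came from this line, labelled wild type. Untreated cells received no cytokine, and IL-1βlow cells received 10 pg/ml IL-1β for 72 h, renewed every 24 h. CYT cells received a mixture of IL-1β (100 pg/ml) and IFN-γ (5 ng/ml) over 16 h, and IL-1βlow + CYT cells received the low dose first and then, in fresh medium, the same mixture. Each group had 3 libraries, which the labels call biological replicates.

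Complexes I to IV pass electrons from NADH or succinate to oxygen and pump protons out of the mitochondrial matrix, and complex V, the ATP synthase, uses the return of these protons to make ATP. In β-cells this ATP links glucose breakdown to insulin secretion. The mitochondrial genome encodes a small group of membrane subunits of complexes I, III, IV and V, transcribed as long RNAs that are cut into single messengers and given short poly(A) tails inside the organelle, while all other subunits are transcribed in the nucleus and imported as proteins. The question put to the data was whether both classes and all complexes moved together when cells were challenged, with and without the low dose.

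Total counts ran from 15812640 to 20246806 per library. Mitochondrial members took 1.69% to 4.25% of them and nuclear members 0.974% to 1.26%, while the ribosomal RNA precursor Rn45s took 6.89% to 11.1%. The β-cell genes Ins1 and Ins2 had at least 6584 and 1261 CPM (counts scaled to the library total) in every library. Of 10 listed β-cell genes 9 passed the filter on low counts, while G6pc2 had at most 4 counts in any library. Of 4 leukocyte genes, Ptprc and Itgam had 0 counts, Cd68 had 5 to 22 and Adgre1 had 0 to 58. The α-cell hormone Gcg was present at 415 to 6398 counts. Of the other islet hormones listed, Ghrl had 16 to 45 counts, Sst at most 2 and Ppy at most 4. All genes were tested together with edgeR's quasi-likelihood test, and a gene passed with a Benjamini-Hochberg adjusted p under 0.01 over all 14324 genes. Levels are given as TMM-scaled CPM per library in the order of replicates 1, 2 and 3, differences as log2 fold changes with their standard error (SE), and both come from bulk RNA, so fewer molecules per cell and fewer cells with a given level cannot be told apart. The libraries were made from poly(A) RNA, so the amount of a mitochondrial messenger and its poly(A) tailing cannot be told apart either.

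Most of the mitochondrially encoded class was lower after CYT. In CYT against untreated libraries 11 of the 13 members fell (84.6%) and 0 rose, where 24.5% of all genes tested fell and 25.2% rose. In 11 members all 3 CYT libraries lay below all untreated ones, beside 35.3% of all genes tested. The fold minimum of the study, 1 on the log2 scale, was also met by 9 members, beside 21.6% of all genes tested. The class median was -1.18 on the log2 scale, against -0.04 over all genes tested, and the 13 values ran from -2.74 for ND4L to -0.19 for COX1.

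All 7 complex I subunits fell, and ND4L, ND4 and ND3 had the lowest values of the class. ND4, a core subunit of the proton pumping arm, was at 2572, 2265 and 1699 CPM in untreated libraries and at 678, 353 and 584 CPM in CYT libraries. No CYT library came near the lowest untreated one, and ND4 fell by 2.02 ± 0.33 (log2, SE; adjusted p = 0.000117, edgeR). ND4L, whose gene overlaps that of ND4, was at 334, 193 and 98.6 CPM in untreated and 31.6, 19.5 and 42.5 CPM in CYT libraries, a fall of 2.74 ± 0.60 (adjusted p = 0.00126). Its untreated libraries were themselves widely spread. ND3 went from 708, 492 and 309.8 CPM to 185, 123 and 185 CPM, a fall of 1.61 ± 0.32 (adjusted p = 0.000599).

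ND2 and ND5 fell by 1.29 ± 0.25 and 1.27 ± 0.27, and ND1 by less than either, with adjusted p from 0.000538 to 0.000929. ND6, the one messenger read from the other strand of the mitochondrial genome, was at 453, 406 and 329.6 CPM in untreated and 334, 135 and 164 CPM in CYT libraries. The groups overlapped there, since CYT replicate 1 lay above the lowest untreated library, and ND6 fell by 0.91 ± 0.27 (adjusted p = 0.00845). Of all mitochondrial members that passed, ND6 had the highest adjusted p, and it did not pass by DESeq2 (adjusted p = 0.0205), with scaling that leaves out mitochondrial genes and Rn45s (0.0108) or in 4 of the 6 fits without 1 library.

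The 3 mitochondrial subunits of cytochrome c oxidase, which form its catalytic core, did not move alike. COX2 was at 2420.3, 2111 and 1432 CPM in untreated and 742, 508 and 918 CPM in CYT libraries and fell by 1.46 ± 0.31 (adjusted p = 0.000895). COX3 did not pass, with a log2 fold change of -0.50 ± 0.17 (adjusted p = 0.0172). COX1 was at 13996, 12896 and 11456 CPM in untreated and 11844, 8692 and 13082 CPM in CYT libraries. These ranges overlapped, and COX1 did not pass, with a log2 fold change of -0.19 ± 0.20 (adjusted p = 0.432).

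CYTB, the mitochondrial subunit of complex III, went from 5151, 4761 and 3947 CPM to 3132, 1425 and 2207 CPM and fell by 1.03 ± 0.24 (adjusted p = 0.00181). The membrane subunits of ATP synthase ATP8 and ATP6, whose genes also overlap, fell by 1.18 ± 0.33 and 0.81 ± 0.21 (adjusted p = 0.00663 and 0.00334). Each of these calls ended in 4 of the 6 fits without 1 library, and ATP8 did not pass by DESeq2 (adjusted p = 0.0137). Because ATP8 and ATP6, and ND4L and ND4, share bases, reads could be split between the members of each pair, and the counting rule for such reads is not given in the sources used here. CYT replicate 2 was the lowest CYT library in all 13 members, and 8 members passed without it. Leaving out any other library gave 8 to 11 members.

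**Figure D1:**
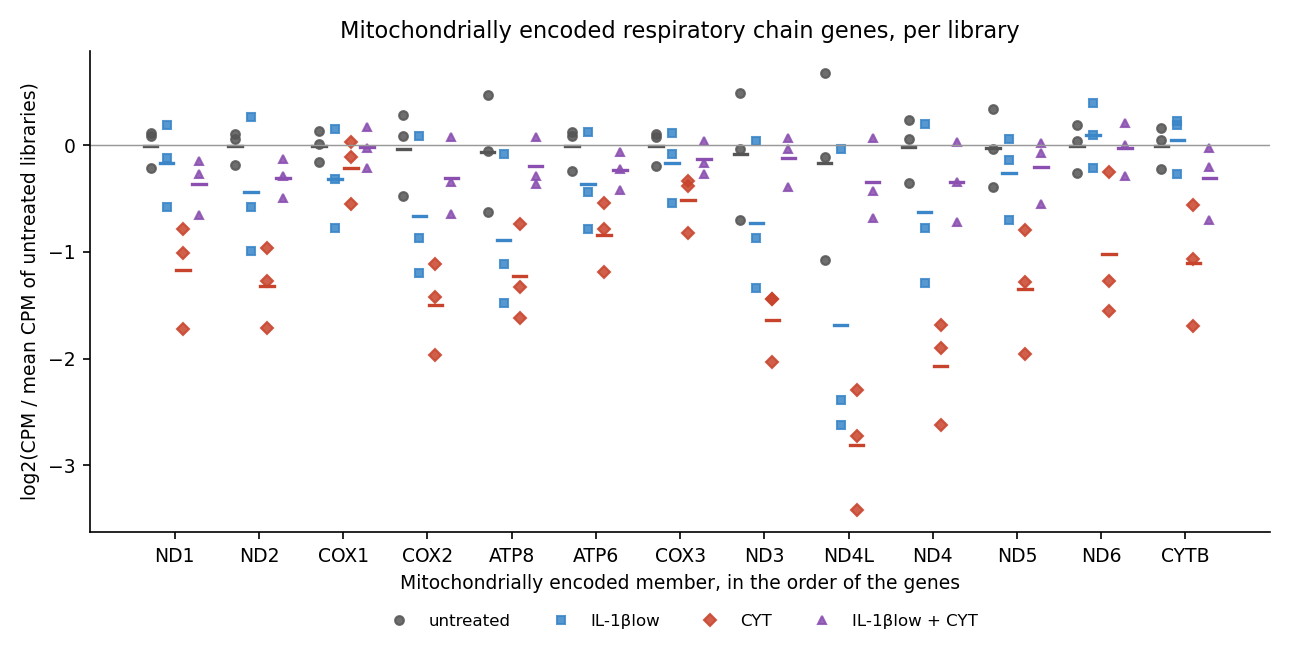
Level of each mitochondrially encoded member in each library, as log2 of its CPM over the mean CPM of the 3 untreated libraries (vertical axis), in the order of the genes along the mitochondrial genome (horizontal axis). Points are libraries, short lines are group means of the log2 values, and the 3 CYT libraries lie below all untreated ones at ND4L and ND4 and overlap the untreated ones at COX1 and ND6.

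The unequal falls changed the make-up of the mitochondrial class. COX1 held 33.4%, 33.4% and 36.1% of the counts of the 13 members in untreated libraries and 45.5%, 49.7% and 49.2% in CYT libraries, while ND4 and ND4L together went from 6.94%, 6.37% and 5.66% to 2.72%, 2.13% and 2.35%. The ratio of COX1 to ND4 counts was 5.44, 5.69 and 6.74 in untreated, 8.08, 8.38 and 5.69 in IL-1βlow, 17.5, 24.6 and 22.4 in CYT and 7.32, 8.34 and 6.51 in IL-1βlow + CYT libraries. CYT libraries stood above all others in this ratio, which compares 2 messengers of the same genome within a library and does not depend on the scaling. With 3 libraries a group, p = 0.1 is the smallest value of a 2-sided exact permutation test, so the ratios are given as values only.

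The mitochondrial ribosomal RNAs mt-Rnr1 and mt-Rnr2, which are no members, had overlapping levels in untreated and CYT libraries. mt-Rnr1 was at 7625 ± 1825 CPM (SD, n = 3) in untreated and 6806 ± 367 CPM in CYT libraries, and mt-Rnr2 at 13851 ± 4478 and 8891 ± 2786 CPM.

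Between CYT and untreated libraries the ratio of the summed classes differed by less than most mitochondrial members did, though not by less than COX1 and COX3. Mitochondrial members had 3.85, 3.43 and 2.88 times the counts of nuclear members in untreated libraries, 2.55, 1.79 and 3.74 times in IL-1βlow, 2.38, 1.56 and 2.74 times in CYT, and 2.66, 2.27 and 3.73 times in IL-1βlow + CYT libraries. CYT and untreated libraries did not overlap, and the log2 ratio differed by -0.64 between their means. Without COX1, which makes up a large share of the sum, the difference was -0.98, and as the mean of log2 CPM over members, where each member weighs the same, it was -1.14. The ratios of the other groups overlapped those of both untreated and CYT libraries.

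**Figure D2:**
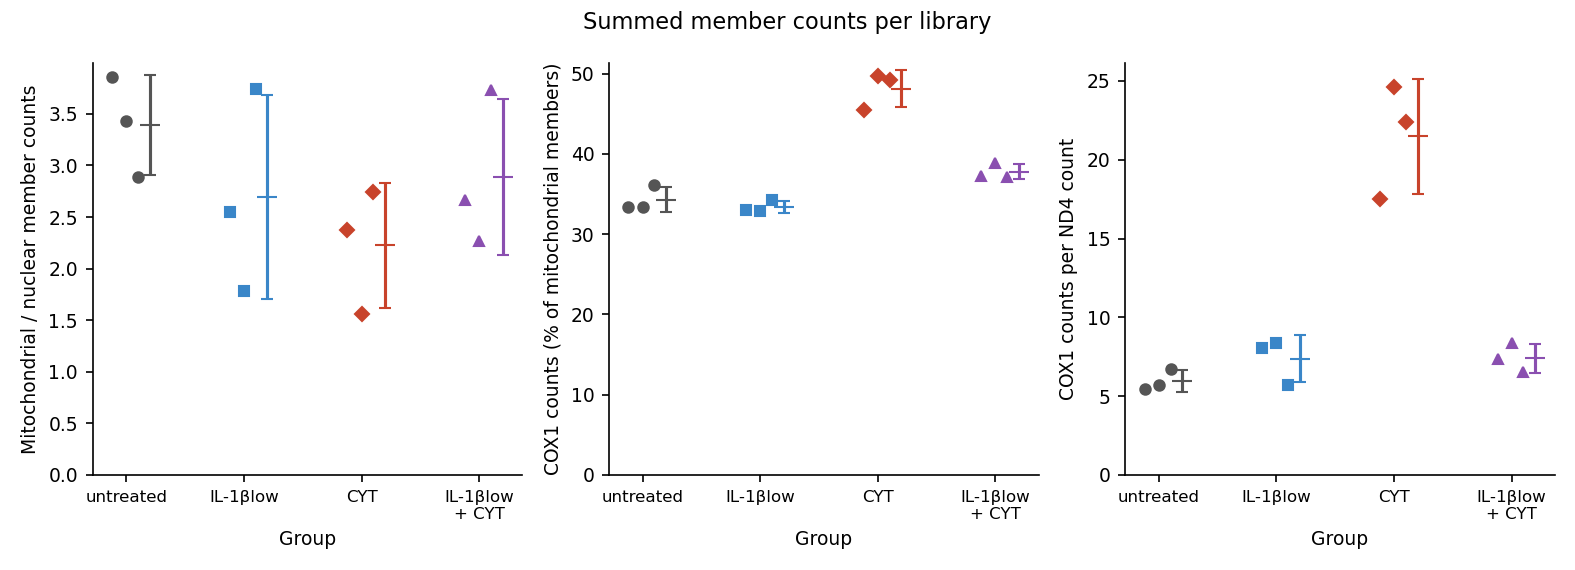
Counts of the mitochondrial over the nuclear members, the COX1 share of the mitochondrial members' counts and COX1 counts per ND4 count (vertical axes) in each library, by group. Points are libraries and bars are mean ± SD over 3 libraries, and only the COX1 share and the COX1 to ND4 ratio set all CYT libraries above every other library.

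Nuclear members changed in both directions in CYT libraries. Of 81, 25 fell (30.9%) and 6 rose, a total of 38.3% beside 49.7% of all genes tested. Their median was -0.13, and without Cox6a2 the values ran from -1.06 to 0.84. The libraries did not overlap for 35 members that were lower and 12 that were higher, beside 35.3% and 34% of all genes tested. Only Ndufa4 and Cox6a2 also met the fold minimum, as 21.6% of all genes did. Cox6a2 passed the filter on low counts only through the CYT libraries, where it was high, so its calls in every comparison are given as description only. The count rests in part on single libraries, since it was 20 without untreated replicate 3 (3 higher, 17 lower).

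Promoters are printed for the 3 largest falls and 3 largest rises among members with a promoter sequence, since nuclear members that moved apart can be set side by side there. The sequences are from RefSeq, assembly GRCr8, which differs from the mRatBN7.2 assembly used for counting, and promoters were found for 73 of the 81 nuclear members. Each line runs from 120 bases before to 30 bases after the annotated start, 5′ to 3′ on the gene's own strand, in lower case with matches to the searched motifs in capitals. The falls are Ndufa4 (chr4:40975530-40975679, minus strand), Atp5mc3 (chr3:79220635-79220784, minus strand) and Ndufb4 (chr11:76569058-76569207, plus strand).
Ndufa4: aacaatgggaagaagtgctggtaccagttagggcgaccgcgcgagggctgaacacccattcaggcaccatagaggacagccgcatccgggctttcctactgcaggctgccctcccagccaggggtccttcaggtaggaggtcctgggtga
Atp5mc3: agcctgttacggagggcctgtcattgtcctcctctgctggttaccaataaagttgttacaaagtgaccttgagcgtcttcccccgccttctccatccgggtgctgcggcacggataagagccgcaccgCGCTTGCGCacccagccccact
Ndufb4: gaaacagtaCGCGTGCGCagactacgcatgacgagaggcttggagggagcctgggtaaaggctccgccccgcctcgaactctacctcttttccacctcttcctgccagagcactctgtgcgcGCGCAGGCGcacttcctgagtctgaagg
The rises are Cox6a2 (chr1:192219687-192219836, minus strand), Cox7a2l (chr6:16936454-16936603, plus strand) and Uqcrc1 (chr8:118468103-118468252, plus strand).
Cox6a2: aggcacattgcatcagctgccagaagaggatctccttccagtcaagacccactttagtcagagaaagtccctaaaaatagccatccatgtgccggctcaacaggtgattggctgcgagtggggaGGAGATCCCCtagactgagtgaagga
Cox7a2l: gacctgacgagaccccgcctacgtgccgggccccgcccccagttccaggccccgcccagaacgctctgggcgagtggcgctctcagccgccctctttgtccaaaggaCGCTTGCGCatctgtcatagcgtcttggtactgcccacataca
Uqcrc1: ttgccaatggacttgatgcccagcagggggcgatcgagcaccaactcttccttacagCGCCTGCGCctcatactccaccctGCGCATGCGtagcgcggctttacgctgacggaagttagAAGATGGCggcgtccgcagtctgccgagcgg
The capitals mark the NRF1 motif GCGCANGCG in Ndufb4, Atp5mc3, Cox7a2l and Uqcrc1, the YY1 motif AAGATGGC in Uqcrc1 and the κB motif in Cox6a2, each searched on both strands. NRF1 and YY1 are factors known for nuclear genes of the respiratory chain, and κB motifs are bound by NF-κB. Over windows of 300 bases, the NRF1 letters stood in 19 of the 73 nuclear members (26%) and in 5.8% of all 33469 promoters, and the YY1 letters in 20.5% and 3.17%. The ETS motif CCGGAAG, the letters bound by GABP, stood in 28.8% and 8.75%, and the κB motif in 2.74% and 4.18%. By response, NRF1 letters stood in 6 of 23 members that fell, 2 of 5 that rose and 11 of 45 that did not pass. ETS letters stood in 6, 1 and 14 members of these groups. The STAT motif TTCNNNGAA stood in 4, 0 and 3 members, and over all promoters in 8.87%. The interferon response motif GAAANNGAA stood in 11% of nuclear members and 9.71% of all promoters, and the TATA box TATAAA in 11% and 14.2%. The NRF1 and interferon motifs were shortened by 1 letter after counts with the longer forms had been seen. The κB motif stood in 0 members that fell, 1 that rose and 1 that did not pass. The set of all promoters was not limited to genes that passed the filter on low counts. Members had all passed it, with 1 sequence each, so the 2 shares given per motif are not of matched sets. The matches are descriptions of letters, and every searched motif except κB was present in members that fell and in members that did not pass.

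In complex I the falls were counted mostly among the accessory subunits, which make up 29 of its 36 nuclear members. Of the 7 core subunits, which carry the flavin and iron-sulphur clusters of the electron path, 1 fell and 1 rose in CYT libraries. Each was 14.3%, and the median was 0.15. Of the 29 accessory subunits, which surround and stabilise that core, 11 fell (37.9%) and 1 rose (3.45%), beside 24.5% and 25.2% of all genes tested. Their median was -0.18. This split, like the split of complex V given later, was made after the values were seen and was not tested. Ndufs1, the largest core subunit, was at 60.4, 72 and 64.6 CPM in untreated and 45.8, 51.6 and 56.5 CPM in CYT libraries and fell by 0.35 ± 0.10 (adjusted p = 0.00571). That call ended in 4 of the 6 fits without 1 library, with no filter on low counts (adjusted p = 0.0412), with only these 2 groups in the fit (0.0199) and with scaling that leaves out mitochondrial genes and Rn45s (0.0116). Ndufv1, which binds NADH, did not pass, at 0.19 ± 0.11 (adjusted p = 0.151).

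Of the accessory subunits Ndufb4 had the largest fall. It was at 35, 37.5 and 35.4 CPM in untreated and 23.5, 21 and 16 CPM in CYT libraries and fell by 0.83 ± 0.14 (adjusted p = 0.000134). Ndufb3, Ndufa2, Ndufa11, Ndufc1, Ndufs5, Ndufb1, Ndufa12, Ndufb6, Ndufc2 and Ndufb5 also fell, by 0.33 to 0.83. The one accessory subunit that rose was Ndufa10, by 0.31 ± 0.09 (adjusted p = 0.00757), a call that ended in 4 of the 6 fits without 1 library and with no filter on low counts (adjusted p = 0.0113). The remaining 17 accessory subunits did not pass. Near-identical copies of Ndufs6, Ndufa10 and Ndufb4 have rows of their own in the deposited counts, and how reads shared between copies were counted is not given, so values of these members are uncertain.

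Complex II has no mitochondrially encoded subunit and also works in the citric acid cycle, and 1 of its 4 members passed. Sdhb, its iron-sulphur subunit, rose by 0.36 ± 0.11 (adjusted p = 0.00874), from 52.9, 51.9 and 51.1 CPM to 73.2, 69.3 and 57.8 CPM, but did not pass in 5 of the 6 fits without 1 library (adjusted p = 0.0169 to 0.0313). The flavoprotein Sdha and the membrane anchors Sdhc and Sdhd did not pass, with values of -0.01, -0.26 and -0.04.

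In complex III, Uqcrc1, a core protein of the matrix side, rose by 0.38 ± 0.10 (adjusted p = 0.0036), but did not pass without CYT replicate 2 (adjusted p = 0.0234) or untreated replicate 3 (0.0149). The small subunits Uqcr11 and Uqcrh fell by 0.75 ± 0.14 and 0.44 ± 0.12 (adjusted p = 0.000306 and 0.00624). Uqcrc2 and the Rieske iron-sulphur protein Uqcrfs1 did not pass, at -0.15 and 0.23.

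Complex IV held the largest nuclear fall and the largest rises. Ndufa4, first named for complex I and now known as a subunit of cytochrome c oxidase, was at 230.1, 224 and 210.2 CPM in untreated and 139, 96.8 and 82.3 CPM in CYT libraries. The groups were far apart, and Ndufa4 fell by 1.06 ± 0.15 (adjusted p = 2.53e-05). Cox7b, Cox7a2, Cox7a2l2 and Cox6c fell by 0.44 to 0.57, while the conserved subunits Cox4i1, Cox5a, Cox5b, Cox6a1, Cox6b1 and Cox8a did not pass, with values between -0.16 and 0.18.

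Cox7a2l, a relative of Cox7a known as a factor that joins complexes III and IV into supercomplexes, went the other way from Cox7a2. It was at 148, 148 and 147 CPM in untreated and 256, 284 and 256 CPM in CYT libraries and rose by 0.84 ± 0.08 (adjusted p = 5.2e-07), with the lowest adjusted p of the nuclear members other than Cox6a2. Cox7a2 was at 10.8, 9.82 and 11.2 CPM and then 8.53, 6.35 and 7.31 CPM and fell by 0.52 ± 0.14 (adjusted p = 0.00456), but it did not pass with only these 2 groups in the fit (adjusted p = 0.0169), with no filter on low counts (0.0325) or in 4 of the 6 fits without 1 library. Cox7a1, the muscle form, had at most 1.78 CPM in any library. Cox7a2l2 resembles Cox7a2 in name, and reads of such copies may be shared.

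Cox6a2, known as the heart and skeletal muscle form of subunit VIa, had 0 counts in all 3 untreated libraries and 1, 0 and 0 counts in IL-1βlow libraries. It had 90, 131 and 90 counts in CYT libraries, which was at least 32.2-fold higher than untreated against a floor of 3 counts per library. In IL-1βlow + CYT libraries it had 4, 5 and 4 counts. CYT libraries were 23.2-fold higher than these, with a 95% interval from counting error alone of 13.3 to 44.0. The neighbouring gene Itgad had at most 1 count in any library. The liver form Cox6a1 stayed between 303 and 417 CPM in all 12 libraries, so Cox6a2, at 4.6 to 7.64 CPM in CYT libraries, had few reads beside it.

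**Figure D3:**
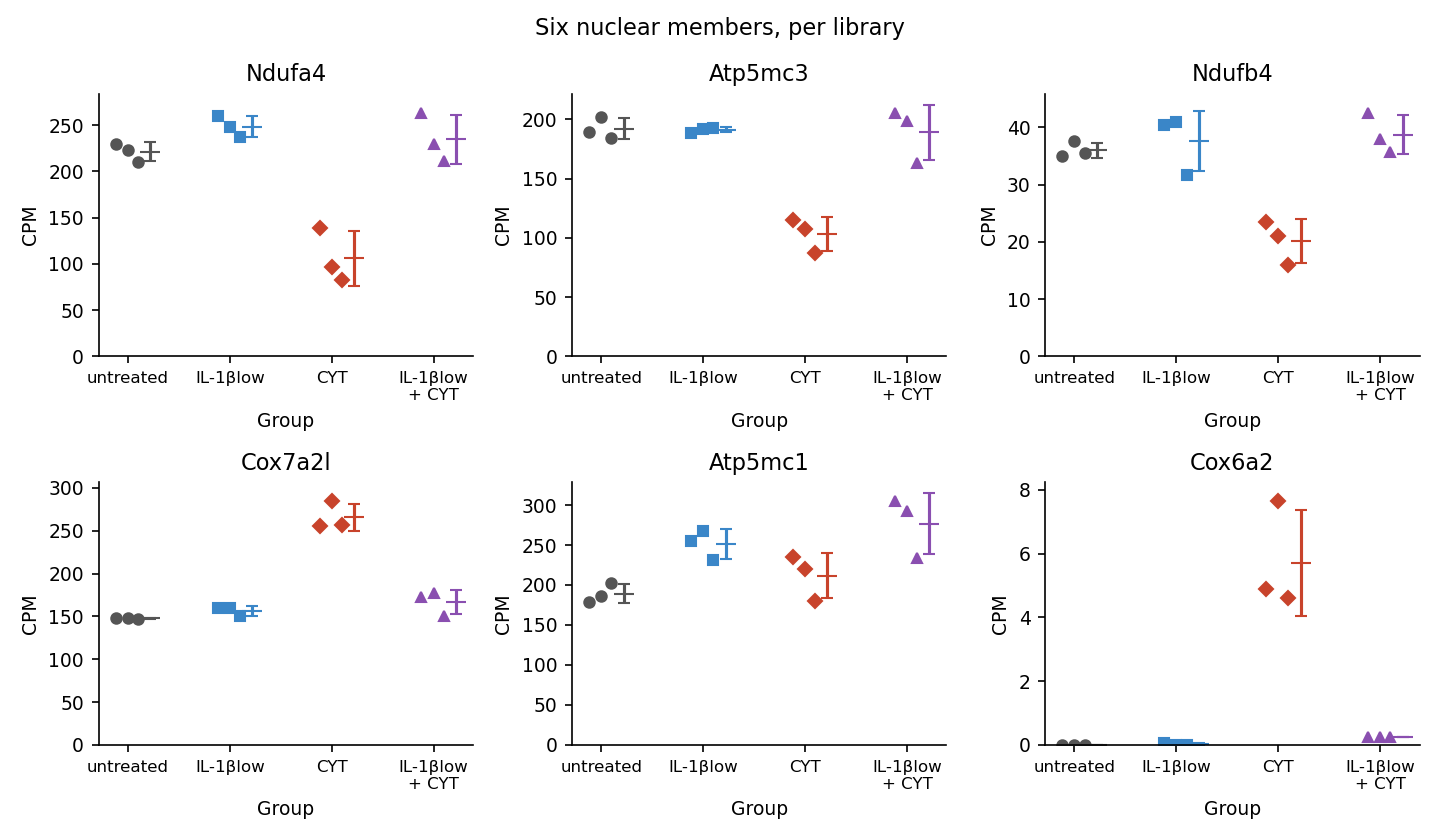
CPM (vertical axis, from 0) of Ndufa4, Atp5mc3, Ndufb4, Cox7a2l, Atp5mc1 and Cox6a2 in each library, by group, with points for libraries and bars for mean ± SD over 3 libraries. Ndufa4, Atp5mc3 and Ndufb4 were lowest in the 3 CYT libraries, Cox7a2l and Cox6a2 were highest there, and Atp5mc1 lay above all untreated libraries in both groups with the low dose.

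Of the 5 subunits of the F1 head and central stalk of ATP synthase, 0 passed in CYT libraries by edgeR, 0 by DESeq2 and 0 by exactTest. By edgeR 49.7% of all genes tested passed. An unadjusted p under 0.05 by edgeR was found for 1 of the 5, beside 9444 of all 14324 genes. With the replicate block 1 passed. Atp5f1a was at 985 to 1037 CPM in untreated and 1002 to 1111 CPM in CYT libraries, and Atp5f1b at 1465 to 1529 and 1536 to 1761 CPM. Of 12 subunits of the membrane part and peripheral stalk, 5 fell (41.7%) and 0 rose, beside 24.5% and 25.2% of all genes tested. Their median was -0.32.

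The proton-carrying c-ring is encoded by 3 nuclear genes with the same mature protein, and they differed. Atp5mc3 was at 189.7, 202 and 185 CPM in untreated and 115, 107 and 87.2 CPM in CYT libraries and fell by 0.90 ± 0.11 (adjusted p = 5.66e-06). Atp5mc1 and Atp5mc2 did not pass, with values of 0.16 ± 0.12 and 0.27 ± 0.11 (adjusted p = 0.228 and 0.0374). Atp5mk, Atp5mpl, Atp5mf and Atp5pf fell by 0.54 to 0.70, where Atp5mpl did not pass in 3 of the 6 fits without 1 library and Atp5mk in 1. The inhibitor of ATP hydrolysis Atp5if1 was at 161, 175 and 169 CPM in untreated and 141, 125 and 111 CPM in CYT libraries and fell by 0.42 ± 0.11 (adjusted p = 0.00358), but did not pass in 4 of the 6 fits without 1 library (adjusted p = 0.012 to 0.0283).

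**Figure D4:**
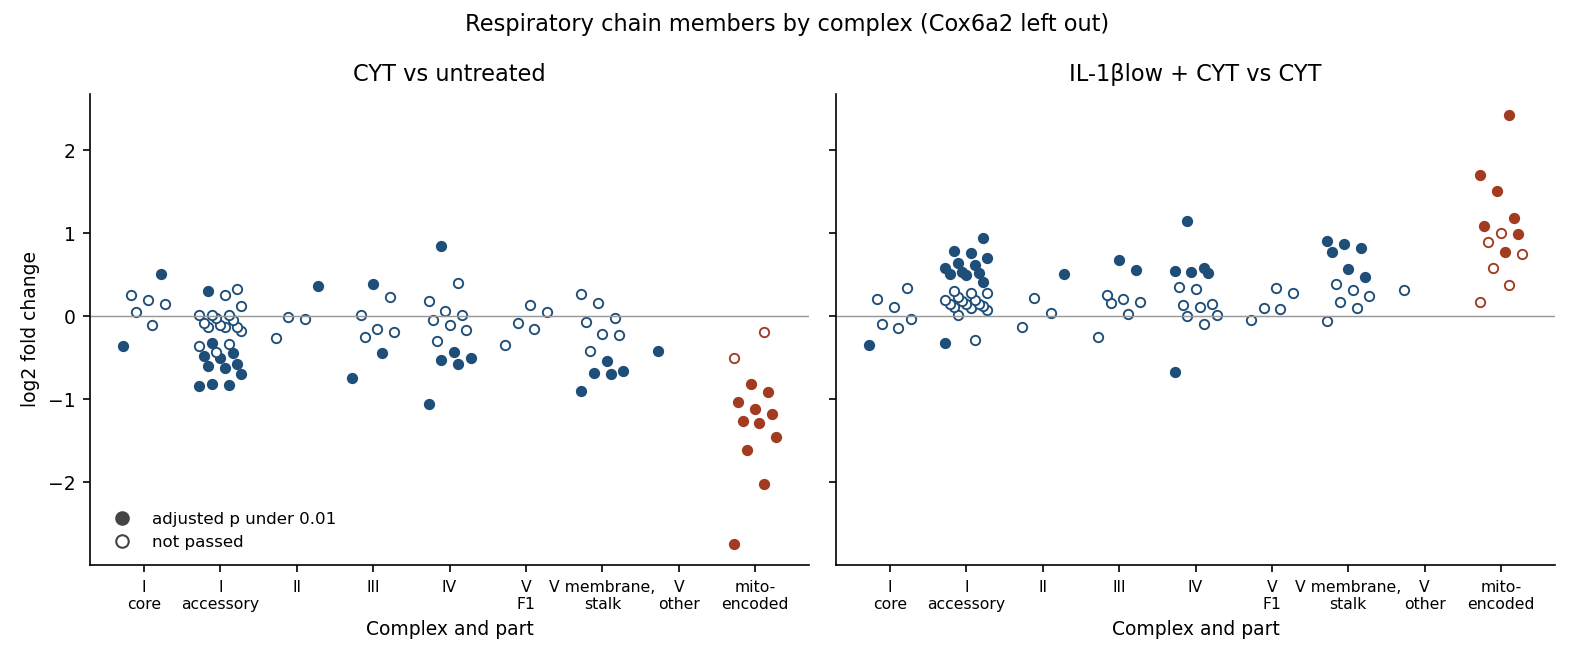
Log2 fold change (vertical axis) of every member by complex and part (horizontal axis), for CYT against untreated and IL-1βlow + CYT against CYT, with filled points for an adjusted p under 0.01 (edgeR) and Cox6a2 left out. Mitochondrially encoded members reach -2.74 on the left and 2.42 on the right, while nuclear members lie between -1.06 and 1.14.

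Part of the mitochondrial class was higher when the low dose preceded the challenge. In IL-1βlow + CYT against CYT libraries, 7 mitochondrial members were higher (53.8%) and 0 lower, beside 17.1% and 19.2% of all genes tested, with a median of 0.99. In 10 members all IL-1βlow + CYT libraries lay above all CYT ones, beside 26.8% of all genes tested, and 5 members also met the fold minimum, beside 12.5%. Rn45s took 9.96% to 11.1% of the counts in IL-1βlow + CYT libraries and 7.87% to 9.36% in CYT libraries, without overlap. With Rn45s and the mitochondrial genes left out of the scaling, 6 mitochondrial and 28 nuclear members passed, and no other part of Rn45s in these values was tested. The 7 members were ND4L, ND4, ND3, COX2, ND5, ND2 and ND1. ND4 and ND3 passed in all 6 fits without 1 library, while COX2, ND2 and ND1 each failed in 4, ND5 in 3 and ND4L in 2. ND1 also failed with scaling that leaves out mitochondrial genes and Rn45s (adjusted p = 0.0129), with at least 10 counts in every library (0.013) and with only these 2 groups in the fit (0.0152). The same-numbered libraries of these groups deviated together, with correlations over genes of 0.116, 0.475 and 0.453. With the replicate number as a block over all 12 libraries 11 members passed by edgeR. ND6, CYTB, ATP8 and ATP6 were added at adjusted p from 0.000113 to 0.00466. This block also covers groups whose numbers are not taken to pair.

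ND4 was at 1716, 1318 and 2217 CPM in IL-1βlow + CYT libraries, above all 3 CYT libraries, a difference of 1.70 ± 0.33 (adjusted p = 0.000688). ND4L was at 155, 129.9 and 219 CPM there, 2.42 ± 0.60 above CYT (adjusted p = 0.00388). COX2 was at 1561, 1275 and 2098 CPM, a difference of 1.19 ± 0.31 (adjusted p = 0.00516). COX1 did not pass, at 0.18 ± 0.20 (adjusted p = 0.49). The number of calls depended on single libraries, with 2 members passing without CYT replicate 2, 3 without IL-1βlow + CYT replicate 1 and 4 without IL-1βlow + CYT replicate 3. All 13 differences were above 0 in the fits with other scalings.

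Of the nuclear members 26 were higher (32.1%) and 4 lower (4.94%) in IL-1βlow + CYT than in CYT libraries, beside 17.1% and 19.2% of all genes tested. In either direction 37.0% passed, near the 36.3% of all genes tested, and the nuclear median was 0.21. The libraries did not overlap for 34 that were higher and 5 that were lower, beside 26.8% and 27.6% of all genes tested. The 22 nuclear members that were lower in CYT than untreated and higher in IL-1βlow + CYT than CYT included Ndufa4, Atp5mc3 and Ndufb4. The share of all genes with this pattern was not counted, so the 22 are not set against a background. Both comparisons use the CYT libraries, so their values are not independent. Ndufa4 was at 263, 229.7 and 211 CPM in IL-1βlow + CYT libraries, 1.14 ± 0.15 above CYT (adjusted p = 2.28e-05), and its range met that of untreated libraries. Atp5mc3, at 205, 199 and 163 CPM, differed by 0.87 ± 0.11 (adjusted p = 1.39e-05), and Ndufb4, at 42.5, 38 and 35.7 CPM, by 0.94 ± 0.14 (adjusted p = 7.52e-05).

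Nuclear members lower in IL-1βlow + CYT than in CYT libraries included Cox6a2, Cox7a2l and Ndufa10, of which Ndufa10 did not pass in 5 of the 6 fits without 1 library, with no filter on low counts (adjusted p = 0.0227) or with only these 2 groups in the fit (0.034). Cox7a2l was at 173, 177 and 150.3 CPM in IL-1βlow + CYT libraries and differed from CYT by -0.67 ± 0.08 (adjusted p = 1.03e-05). Sdhc, which had not passed in CYT libraries, was at 81.3, 80.8 and 62.4 CPM and was higher by 0.50 ± 0.12 (adjusted p = 0.00232), but did not pass in 3 of the 6 fits without 1 library or with only these 2 groups in the fit (adjusted p = 0.0165). Ndufa3, Ndufb7 and Atp5me were also higher without having passed in CYT. The count of nuclear calls was 40 with the replicate block and 19 without IL-1βlow + CYT replicate 1 or without CYT replicate 3. With only these 2 groups in the fit it was 19 as well.

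Few members differed between IL-1βlow + CYT and untreated libraries. In that comparison 0 mitochondrial members passed by edgeR, and DESeq2 also gave 0. An unadjusted p under 0.05 by edgeR was found for 0 of them, beside 4866 of all 14324 genes tested. All 13 values were below 0, as were those of 7247 of all genes, and the class median was -0.23. Of the nuclear members 2 were higher and 0 lower, beside 8.24% and 5.53% of all genes tested. Non-overlapping libraries were found for 9 higher and 1 lower nuclear members, beside 20.2% and 17.1%. Atp5mc1, a c-ring gene that had not passed in CYT, was at 179, 186 and 202 CPM in untreated, 255, 268 and 231 CPM in IL-1βlow, 235, 219.8 and 180.0 CPM in CYT and 304, 292 and 234 CPM in IL-1βlow + CYT libraries. Both groups with the low dose lay above all untreated libraries, and the difference between IL-1βlow + CYT and untreated was 0.55 ± 0.12 (adjusted p = 0.00282). Cox6a2 was the other, on 4, 5 and 4 counts against 0, and met the fold minimum as 5.99% of all genes did. Cox6a2 passed in 0 of the 6 fits without 1 library and did not pass with only these 2 groups in the fit (adjusted p = 0.0266). Atp5mc1 did not pass without untreated replicate 1 or 2, or without IL-1βlow + CYT replicate 1 or 2.

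The low dose alone gave 0 calls among members by edgeR, DESeq2 or exactTest, in a comparison in which 0.321% of all genes were higher and 0.182% lower. Libraries did not overlap for 15 nuclear members that were higher and 1 that was lower, beside 13% and 10.6% of all genes tested, and overlapped for all 13 mitochondrial ones. An unadjusted p under 0.05 by edgeR was found for 5 nuclear and 1 mitochondrial members, beside 1982 of all 14324 genes tested. The nuclear values leaned upward, with 72 of 81 above 0 and a median of 0.12. The mitochondrial ones leaned downward, with 11 of 13 below 0 and a median of -0.32. Of all genes tested 7264 were above 0 and 7040 below, with a median of 0.004. The 3 libraries were unlike each other in the mitochondrial class. ND4 was at 1269 and 890.1 CPM in IL-1βlow replicates 1 and 2 and at 2502 CPM in replicate 3, and ND4L at 39.7, 33.9 and 203 CPM. Replicates 1 and 2 thus lay below all untreated libraries in both genes, replicate 3 among them. Without replicate 3, ND4L passed at -2.50 (adjusted p = 0.00984). With no filter on low counts, which changes the scaling and the shared estimate of the spread, 5 mitochondrial members passed as lower (ND4L, ATP8, ND3, COX2 and ND4) and Atp5mc1 as higher.

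The interaction asked whether CYT acted differently in cells with and without the low dose. It passed for 6 mitochondrial members, all with a positive value, beside 10.1% of all genes tested with a positive and 12.5% with a negative value. ND4L had the largest value, 3.60 ± 0.82 (adjusted p = 0.00373), followed by ND4 at 2.19 ± 0.46, ND3 at 2.12 ± 0.45, ATP8 at 1.76 ± 0.47, COX2 at 1.74 ± 0.43 and ND2 at 1.33 ± 0.36. ATP8 and ND2 did not pass by DESeq2 (adjusted p = 0.0143 and 0.0124), with scaling that leaves out mitochondrial genes and Rn45s (0.0104 and 0.0113), with at least 10 counts in every library (0.0108 and 0.0117), or in 9 and 10 of the 12 fits without 1 library. COX2 did not pass in 8 of these 12 fits and ND4L in 4, while ND4 and ND3 passed in all 12. Because IL-1βlow replicates 1 and 2 were low in these genes, part of each value is the difference between IL-1βlow and untreated libraries. Without IL-1βlow replicate 1 the count was 2, without replicate 2 it was 3 and without replicate 3 it was 8. It was also 2 without untreated replicate 1 or CYT replicate 2 and 3 without untreated replicate 2 or without IL-1βlow + CYT replicate 1 or 3. Among nuclear members 7 had a positive value (Ndufa4, Atp5mk, Atp5mc3, Ndufb4, Ndufc1, Ndufc2 and Atp5pf, from 0.52 to 0.98) and Cox7a2l a negative one of -0.75 ± 0.11 (adjusted p = 0.000191). Atp5mk did not pass in 8 of the 12 fits without 1 library and Ndufb4 in 1, while Ndufa4, Atp5mc3 and Cox7a2l passed in all 12. The nuclear count was 4 without untreated replicate 2, 14 without IL-1βlow + CYT replicate 3, and 5 without replicate 1 of untreated, IL-1βlow or IL-1βlow + CYT or without replicate 2 of IL-1βlow or CYT.

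Other genes of the pathway were counted by list. Of 102 tested factors that assemble the complexes, carry electrons or handle mitochondrial RNA, 28 rose and 17 fell in CYT libraries, with a median of 0.07, and 13 were higher and 21 lower in IL-1βlow + CYT than in CYT. These are 27.5% and 16.7% in CYT, beside 25.2% and 24.5% of all genes tested, and 12.7% and 20.6% in IL-1βlow + CYT against CYT, beside 17.1% and 19.2%. Of 17 complex I assembly genes 6 rose (35.3%) and 3 fell (17.6%), with Ndufaf6 at 0.97 ± 0.12 (adjusted p = 5.37e-06) and Dmac1 at -0.62. Of 21 complex IV assembly genes 8 rose (38.1%) and 4 fell (19.0%), with Cox18, which inserts COX2 into the membrane, at 0.85 and Cox20, a chaperone of COX2, at -1.18 ± 0.20 (adjusted p = 0.000129). Of 9 complex III assembly genes 2 rose and 1 fell. Of 4 complex II assembly genes only Sdhaf1, which serves the iron-sulphur subunit Sdhb, passed, at 1.19 ± 0.11 (adjusted p = 3.29e-07), and it was still 0.94 ± 0.11 above untreated in IL-1βlow + CYT libraries (adjusted p = 1.27e-05). Of 6 complex V assembly genes only Tmem70 passed, at -0.52.

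Of 14 electron carrier genes 4 rose (28.6%) and 3 fell (21.4%), near the shares of all genes tested. Coq8b, needed to make ubiquinone, rose by 0.93 ± 0.09 (adjusted p = 1.09e-06), and Cycs, which encodes cytochrome c, fell by 0.65 ± 0.16 (adjusted p = 0.00325).

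Of 31 genes for mitochondrial transcription and RNA, 7 rose (22.6%) and 5 fell (16.1%) in CYT libraries, shares below those of all genes tested. Mtpap, the mitochondrial poly(A) polymerase, went from 22.5 ± 1.35 CPM (SD, n = 3) in untreated to 50.2 ± 6.95 CPM in CYT libraries and was at 24.6 ± 2.61 CPM in IL-1βlow + CYT libraries. Its log2 fold changes were 1.16 ± 0.12 and -1.03 ± 0.12 (adjusted p = 1.65e-06 and 9.78e-06). Mterf2, of a family that binds mitochondrial DNA, had the largest fall, 1.29 ± 0.26 (adjusted p = 0.000573), and Fastkd5, which processes mitochondrial messengers, was 0.92 ± 0.18 higher in IL-1βlow + CYT than in CYT libraries (adjusted p = 0.000861).

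A further 5 genes of that list were singled out after their values were seen. The mitochondrial RNA polymerase Polrmt rose by 0.53 ± 0.11 in CYT libraries, and the RNA helicase of the degradosome Supv3l1 by 0.68 ± 0.08 (adjusted p = 0.000877 and 4.94e-06). Slirp, a stabiliser of mitochondrial messengers, fell by 0.85 ± 0.19 (adjusted p = 0.0012), and its partner Lrpprc did not pass, at -0.19 ± 0.09 (adjusted p = 0.0776). Tfam, which packages and activates mitochondrial DNA, did not pass in CYT, at -0.09 ± 0.11 (adjusted p = 0.489), and was 0.45 ± 0.11 lower in IL-1βlow + CYT than in untreated libraries (adjusted p = 0.00949). The part of these genes in the values of the mitochondrial members was not tested.

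Reads of overlapping genes add a limit, since the strand setting of the counting is not given in the sources used here. In GRCr8, 30 of the 81 nuclear members overlap another annotated gene, and these include 11 of the 31 that passed in CYT, among them Cox7a2l, Ndufa10, Ndufa2, Atp5mk and Atp5pf.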

How the data were processed

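Poly(A) RNA of INS-1E cells was sequenced by the authors from TruSeq libraries, 3 per group. Reads were checked with FastQC, trimmed with rfastp, aligned to mRatBN7.2 with Rsubread and counted on genes with featureCounts. The authors deposited these counts as whole numbers per gene symbol without normalization, and 0 columns were left unmatched. Intervals and floors cover counting error only.

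Genes with CPM above 1 in at least 2 of 12 libraries were kept, library sizes recomputed and TMM factors calculated. One quasi-likelihood fit in edgeR 4.0.16 (R 4.3.3) over all 12 libraries, with 8 residual degrees of freedom, gave 4 pairwise contrasts and the interaction, with p-values adjusted over 14324 genes. The main rule was an adjusted p under 0.01. The study used exactTest with fold minimums (log2 of 0.6 for IL-1βlow against untreated, 1 otherwise), both tried as alternatives. DESeq2 1.42.0, other scalings, filters and sample sets and leaving out each library were also tried.

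Scripts were tested on simulated counts for CYT against untreated over 14324 genes. There 27 of 100 genes changed by 0.6 (log2) passed, 87 of 100 changed by 1.2, and 0 of 14124 unchanged genes. Every simulated gene had the same coefficient of variation between libraries, 0.123, and far fewer genes changed than in the data. These rates therefore need not hold for the members. Between libraries of a group, chi-square over degrees of freedom was 7.09 to 27.2, above the 1 of sampling noise, and none was counted as a copy. p-values measure the spread between these libraries of 1 cell line.

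Same-numbered libraries deviated together between IL-1βlow + CYT and CYT (correlations 0.116, 0.475 and 0.453 over genes), where the numbers were taken to pair samples.

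The members and lists were chosen with earlier results of these data known. Named are all mitochondrial members, the 3 largest rises and falls per contrast among nuclear members that passed with a mean log2 CPM above 2, core subunits, isoform groups, Ndufa4 and Atp5if1, and for each list its largest rise and fall. Not every gene that meets the rule is described, and other subunits are named after their values were seen. One result is not reported here. Fold changes of the authors were not used.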

Additional observations from a re-analysis of the deposited data

Results flagged for a closer look

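The effect of CYT differed between cells with and without the low dose in 14 members, by the interaction term of edgeR's quasi-likelihood test with adjusted p under 0.01. These calls made up 46.2% of mitochondrial and 9.88% of nuclear members, beside 22.6% of all genes tested. Values are log2 fold changes of the interaction. For the mitochondrial members they were 3.60 for ND4L, 2.19 for ND4, 2.12 for ND3, 1.76 for ATP8, 1.74 for COX2 and 1.33 for ND2. For nuclear members they were 0.98 for Ndufa4, 0.93 for Atp5mk, 0.88 for Atp5mc3, 0.88 for Ndufb4, 0.85 for Ndufc1, 0.60 for Ndufc2 and 0.52 for Atp5pf. Cox7a2l had the one negative value, -0.75. In the mitochondrial members named here IL-1βlow replicates 1 and 2 lay below replicate 3. Without IL-1βlow replicate 1, 2 or 3, the interaction passed for 2, 3 and 8 mitochondrial members.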

How the results depend on the processing

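Named members that had passed were checked again in 881 cases. Of these, 733 passed with the same direction, 148 kept their direction without passing, and 0 reversed. The 733 include the cases at an adjusted p under 0.05, which reuse the main fit at a laxer threshold and could not fail. They were 25 in CYT against untreated, 18 in IL-1βlow + CYT against CYT, 2 in IL-1βlow + CYT against untreated and 11 in the interaction. Members described beyond the naming rule and genes of the pathway lists were not followed one by one. Depth limits Cox6a2 and Cox7a1, the members with the fewest counts.

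With the fold minimum of the study, 2 nuclear members passed in CYT against untreated, 2 in IL-1βlow + CYT against CYT, 1 in IL-1βlow + CYT against untreated and 0 in the interaction, since most nuclear changes are smaller than it. With no filter on low counts, 1 nuclear and 5 mitochondrial members passed in IL-1βlow against untreated, and 11 mitochondrial members in both IL-1βlow + CYT against CYT and the interaction. The cause was not tested. With at least 10 counts in every library, 1 nuclear member passed in IL-1βlow + CYT against untreated, since Cox6a2 was not tested. With only the groups compared in the fit, 1 passed there and 19 in IL-1βlow + CYT against CYT. An adjusted p under 0.05 gave 24 nuclear members in the interaction and 11 mitochondrial ones in IL-1βlow + CYT against CYT.

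With the replicate block, fitted over all 12 libraries, 11 mitochondrial members passed in IL-1βlow + CYT against CYT, where the numbers were taken to pair. It ended no call of a named member there. In the other comparisons same-numbered libraries did not all correlate above 0.1, and the numbers are not taken to pair them. The block was thus estimated partly from libraries not taken to pair, and it is no paired test of IL-1βlow + CYT against CYT alone. The block gave 18 nuclear and 10 mitochondrial members in the interaction, and 42 nuclear and 12 mitochondrial ones in CYT against untreated.

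Leaving out 1 library at a time gave 20 to 29 nuclear members in CYT against untreated, 19 to 37 in IL-1βlow + CYT against CYT, 0 to 3 in IL-1βlow + CYT against untreated and 4 to 14 in the interaction. For mitochondrial members it gave 0 to 1 in IL-1βlow against untreated, 8 to 11 in CYT against untreated, 2 to 8 in IL-1βlow + CYT against CYT and 2 to 8 in the interaction.

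The log2 ratio of mitochondrial to nuclear member counts, -0.64 in CYT against untreated, was -1.14 as a mean of log2 CPM and -0.98 without COX1, and in IL-1βlow + CYT against CYT it was 0.38, and 0.85 as a mean of log2 CPM. In these means each member weighs the same, while COX1, with the smallest log2 fold changes of the class in both comparisons, makes up a large share of the sums. Leaving out 1 library at a time gave ratios from -0.81 to -0.40 and from 0.15 to 0.55.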
